A study of Homo sapiens with 6 samples.

Results

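The guides described here target 9 genes of the MutS and MutL families of DNA mismatch repair in a screen of paired CRISPR knockouts. They were chosen by name, as every guide in the combined count tables whose gene symbol is Msh, Mlh or Pms followed by 1 digit. These are 36 of 1887 guides, 4 for each gene, and the genes given by name below are Msh3, Msh4, Msh5 and Msh6 (MutS family) and Mlh3, Pms1 and Pms2 (MutL family). Guides 1 and 2 of a gene sit at position 1 of a construct and guides 3 and 4 at position 2, so that a construct can remove 2 genes from 1 cell. Of 863546 guide pairs with reads, 32252 (3.73%) hold a mismatch repair guide, and 306 hold one at both positions.

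In mismatch repair, MutS dimers find errors left by DNA polymerase and MutL dimers then nick the new strand so that it can be removed and copied again. Msh6 is the MutS subunit that recognises base mismatches and short loops, Msh3 the one for longer loops, and Pms2 carries the main nicking activity of the MutL proteins. Msh4 and Msh5 form a dimer that acts in meiotic crossing over, in which Mlh3 also takes part. Loss of Msh6 or Pms2 is known for raising the mutation rate.

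All cells were eHAP iCas9-cl#6, a single clone of the haploid human line eHAP with an inducible Cas9, and were p53 null. The irradiated day 15 cells (2 libraries) received 0.6 Gy of X-rays 24 hours after each split and had gone through 10 population doublings. The unirradiated day 14 cells (2 libraries) had gone through 12 doublings, and the day 0 cells (2 libraries) were the unirradiated start, with no doublings stated. The growth protocol, which is the same text for all groups, gives transduction at a multiplicity of 0.15, puromycin selection, 7 days of doxycycline to switch on Cas9 with blasticidin, splits every 3 days, and 3% CO2 with 12% O2. The treatment protocol calls the dose LD20 and the series' design text LD30, names for doses that kill that percentage of cells. Irradiated and unirradiated cells also differ by 1 day and in doublings, which cannot be told apart from the irradiation. Cutting at the target sites was not measured in the counts, so a guide stands for an intended knockout.

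The libraries held between 61185707 and 86587125 reads. Mismatch repair guides took 3.62% and 3.63% of them in irradiated cells, 3.66% and 3.61% in day 14 cells, and 3.28% and 3.59% in day 0 cells. A pair of libraries was incomplete. Constructs with a mismatch repair guide had no reads in 47.4% of cases in irradiated replicate 2 and in 52.0% in day 14 replicate 1, against 0.95% to 5.02% in the other 4 libraries. Reads are PCR products without molecular identifiers, and nothing in the labels says that replicates were separate cultures, so every p-value below measures the spread between these libraries, which may be technical.

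Summed over all their partners, the mismatch repair guides kept nearly the same share of reads in irradiated, day 14 and day 0 cells, apart from position 2 guides in day 0 replicate 1. Of the 36 guides, 35 had a mean count of at least 2000 and were tested. The other, Msh4_sg3, was seen in 1 construct with 1 read, in irradiated replicate 2, so Msh4 rests on 3 guides. Across the 5 libraries other than day 0 replicate 1, the highest level of a guide in CPM (reads scaled to a fixed library total) was at most 1.23 times its lowest. The median of this ratio was 1.11 over the 35 guides and 1.12 over all 1849 guides tested, whose ratios reached 3.92.

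With edgeR's quasi-likelihood test, adjusted over all guides at a threshold of 0.05, 0 of 35 mismatch repair guides were called in irradiated against day 14 cells, where 0% of all guides were called. The same was true of irradiated against day 0 cells (0 of 35, with 0% of all guides called) and of day 14 against day 0 cells (0 of 35, with 0% of all guides called). At an unadjusted p under 0.05 there were 1, 0 and 0 mismatch repair guides in these 3 comparisons, of 83, 57 and 79 guides in all. limma-trend called 0 mismatch repair guides in each comparison (0.0541%, 0% and 0% of all guides called). DESeq2 called 1 between irradiated and day 14 cells (1.19% of all guides called) and 0 in the others (1.46% of all guides called against day 0 in irradiated cells, 1.3% in day 14 cells). Without day 0 replicate 1, edgeR called 0 of 35 in each comparison (0.541%, 0.216% and 0.162% of all guides called).

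Between irradiated and day 14 cells 14 of the 35 guides were higher and 21 lower, with a median log2 fold change of -0.03. Among the guides of the genes named here the values ran from -0.10 (Msh4_sg1) to 0.19 (Pms2_sg1). The 95% intervals had a median half-width of 0.21, and the widest reached -0.70 and 0.69. Changes of that size in some guides were not detectable in this fit, whose spread also takes in the day 0 libraries. Without day 0 replicate 1 the median half-width was 0.16, and the limits reached -0.25 and 0.43. Both irradiated libraries lay above both day 14 libraries for 8 of the 35 guides (15.1% of all guides did so) and below both for 3 (15.8% of all guides).

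Msh6, the MutS subunit for base mismatches, lies on chromosome 2 (GRCh38.p14, 47783145 to 47810101). Constructs with an Msh6 guide held 4737 and 4748 CPM in irradiated cells, 4850 and 4605 CPM in day 14 cells, and 3718 and 4667 CPM in day 0 cells. Day 0 replicate 1 stood apart from the 5 others, which overlapped. The log2 fold change was 0.01 in irradiated against day 14 cells (-0.28 to 0.30), 0.20 in irradiated against day 0 cells (-0.09 to 0.49) and 0.19 in day 14 against day 0 cells (-0.10 to 0.48). Without day 0 replicate 1 the changes against day 0 were 0.02 and 0.02. The interval for irradiated against day 14 cells was then -0.08 to 0.09.

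Msh3, which takes the place of Msh6 in the dimer that binds longer loops, lies on chromosome 5 (80654652 to 80876815). Its constructs held 4695 and 4636 CPM in irradiated cells, 4836 and 4595 CPM in day 14 cells, and 3988 and 4625 CPM in day 0 cells. Again only day 0 replicate 1 was low. Irradiated and day 14 cells differed by -0.01 (-0.23 to 0.20). Without day 0 replicate 1 this interval was -0.10 to 0.07, and the changes against day 0 were 0.01 in irradiated and 0.03 in day 14 cells.

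Msh4 and Msh5 form the meiotic dimer. Msh4 (chromosome 1, 75796882 to 75913242) had 3077 and 3114 CPM in irradiated cells, 3239 and 3073 CPM in day 14 cells, and 2831 and 3127 CPM in day 0 cells. Msh5 (chromosome 6, 31740005 to 31762676) had 4171 and 4198 CPM in irradiated cells, 4111 and 4145 CPM in day 14 cells, and 3269 and 4064 CPM in day 0 cells. The change between irradiated and day 14 cells was -0.03 for Msh4 (-0.21 to 0.16) and 0.02 for Msh5 (-0.25 to 0.30). Without day 0 replicate 1 these intervals were -0.12 to 0.07 for Msh4 and -0.06 to 0.10 for Msh5. For Msh5 both irradiated libraries were above both day 14 libraries, as for 15.3% of all genes, but the Msh5 interval includes 0. Among the genes named here, both irradiated libraries were above both day 0 libraries in CPM for Msh3, Msh5 and Msh6. Both day 14 libraries were above both day 0 libraries for Msh5 and Pms2. The share of all genes was not counted for these orders, so they are not shown to be particular to these genes. For Msh5 the nearest values were 4111 CPM in day 14 replicate 1 and 4064 CPM in day 0 replicate 2. With the position 1 guides alone, Msh5 changed against day 0 by -0.0006 in irradiated and -0.04 in day 14 cells.

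In the MutL family, Pms2, the subunit with the nicking activity of repair, lies on chromosome 7 (5970925 to 6009106). It had 4384 and 4718 CPM in irradiated cells, 4637 and 4499 CPM in day 14 cells, and 4421 and 4389 CPM in day 0 cells. Day 0 replicate 1 did not stand apart for Pms2, and irradiated and day 14 cells differed by -0.0027 (-0.13 to 0.12). Among its guides, Pms2_sg1 had 373 and 412 CPM in irradiated cells, 352 and 334 CPM in day 14 cells, and 370 and 365 CPM in day 0 cells. This guide had the lowest mean of the 35 guides tested, 368 CPM. Its irradiated libraries were the 2 highest. Over all guides, 15.1% had both irradiated libraries above both day 14 libraries, and 18.2% had them above both day 0 libraries. The change against day 14 was 0.19 (-0.03 to 0.42) for Pms2_sg1 and -0.04 (-0.25 to 0.16) for the most abundant guide, Pms2_sg4.

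Pms1, a MutL subunit whose part in repair is less well defined, lies on chromosome 2 (189784450 to 189877629). It had 3820 and 3921 CPM in irradiated cells, 3783 and 3869 CPM in day 14 cells, and 3034 and 3906 CPM in day 0 cells. Mlh3, the MutL endonuclease of meiotic crossing over, lies on chromosome 14 (75013775 to 75051467) and had 3711 and 3490 CPM in irradiated cells, 3712 and 3826 CPM in day 14 cells, and 3065 and 3735 CPM in day 0 cells. Irradiated and day 14 libraries overlapped for Pms1. For Mlh3 both irradiated libraries were below both day 14 libraries in CPM, as for 19.6% of all genes. The nearest Mlh3 values were 3711 and 3712 CPM, and CPM lacks the TMM scaling of the test, so this order is not firm. The change between irradiated and day 14 cells was 0.02 for Pms1 (-0.29 to 0.33) and -0.06 for Mlh3 (-0.33 to 0.21), the lowest of the 9 genes. Without day 0 replicate 1 these intervals were -0.07 to 0.10 for Pms1 and -0.16 to 0.03 for Mlh3.

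For these gene sums, edgeR called 0 of 9 mismatch repair genes in irradiated against day 14 cells, in irradiated against day 0 cells and in day 14 against day 0 cells, with 0% of all 459 genes called in each. The smallest adjusted p among the 9 was 0.996, 0.623 and 0.549 in these comparisons, with 0 members at an unadjusted p under 0.05 in each. DESeq2 and limma-trend called 0 of 9 as well, and DESeq2 called 0.218%, 0.436% and 0.436% of all genes. Without day 0 replicate 1, edgeR called 0 of 9 in each comparison (0.218%, 0% and 0% of all genes called). The median change of the 9 genes between irradiated and day 14 cells was 0.01, against 0.00 over all genes. A construct counts for both of its genes, so the genes are not independent of each other.

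Day 0 replicate 1 was low for 6 genes (Msh3, Msh4, Msh5, Msh6, Pms1 and Mlh3), through their guides at position 2. At position 1, the 18 mismatch repair guides differed between day 0 replicate 1 and replicate 2 by -0.16 to 0.09 on the log2 scale. At position 2 the lowest of 17 guides was at -0.73, and 11 of the 17 (64.7%) were lower by more than 0.4 in replicate 1, against 28.5% of all guides at position 2. Another 4 of the 17 were higher by more than 0.15, against 401 of all 927 guides. Guides 3 and 4 of a gene went together. The difference of replicate 1 from replicate 2 was -0.66 and -0.57 for Msh3, -0.61 and -0.62 for Msh6, -0.62 and -0.63 for Msh5, -0.73 and -0.66 for Pms1, and -0.60 and -0.51 for Mlh3, and -0.66 for guide 4 of Msh4. For Pms2 it was 0.02 and 0.01.

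The same pattern held by gene over the whole library, with limits of -0.4 and 0.15 chosen after the values were seen. Of 432 genes with both position 2 guides measured, 122 had both low, 176 both high and 113 both between. The guides of the other 21 fell in different classes, with 0 genes that had 1 low and 1 high. Msh3, Msh5, Msh6, Pms1 and Mlh3 were among the 122, and Pms2 among the 113. What sets this library apart was not tested. The position 2 guides therefore had a median change of 0.29 in irradiated against day 0 cells and of 0.32 in day 14 against day 0 cells, and without day 0 replicate 1 these medians were 0.02 and 0.04. For the position 1 guides the medians were -0.0022 and -0.01 with all libraries.

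With the position 1 guides alone, an alternative added after the data were seen, the genes named here differed by between -0.07 (Mlh3) and 0.09 (Pms2) in irradiated against day 14 cells. Against day 0 they differed by between -0.08 (Mlh3) and 0.05 (Msh6) in irradiated cells, and by between -0.07 (Pms2) and 0.04 (Msh4) in day 14 cells. None of these values had a 95% interval that left out 0 by edgeR. In this setting edgeR called 0 of 9 mismatch repair genes in each comparison, and 2.18%, 0.437% and 0.437% of all 458 genes.

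Against day 0, both irradiated libraries lay above both day 0 libraries for 7 of 35 guides (18.2% of all guides) and below both for 3 (18.3% of all guides). Both day 14 libraries lay above both day 0 libraries for 9 of 35 (19.5% of all guides) and below both for 4 (21.5% of all guides).

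Constructs with a non-targeting guide at the other position stand for the single knockout, and 1062 of them hold a mismatch repair guide. Their summed reads are given per 100 reads of constructs that hold only non-targeting guides. Of those constructs, 66.6% had no reads in irradiated replicate 2 and 69.7% in day 14 replicate 1, against 3.08% to 16.1% in the other libraries. In edgeR's test 0 of 9 mismatch repair genes were called in each of the 3 comparisons, where 0% of all 459 genes were called in irradiated against day 14, 0% in irradiated against day 0 and 0% in day 14 against day 0 cells. DESeq2 called 0 members and 0% of all genes as well. At an unadjusted edgeR p under 0.05 there were 1, 0 and 0 members of 13, 12 and 18 genes.

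Msh6 single knockouts had 17.4 and 22.6 reads per 100 in irradiated cells, 16.8 and 17.7 in day 14 cells, and 14.6 and 17.0 in day 0 cells. Both irradiated libraries were above both day 0 libraries, by 0.34 (-0.05 to 0.72), and they overlapped with day 14. Without irradiated replicate 2, the higher one, the change against day 0 was 0.13. Msh3, its counterpart in the other dimer, had 17.9 and 18.7 in irradiated cells, 16.7 and 19.1 in day 14 cells, and 16.8 and 17.7 in day 0 cells. That is a change of 0.04 in irradiated against day 14 cells (-0.33 to 0.40), and of -0.09 without both incomplete libraries.

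Msh4 single knockouts had 14.0 and 16.0 reads per 100 in irradiated cells, 16.5 and 17.1 in day 14 cells, and 12.7 and 15.0 in day 0 cells. Msh5 had 15.1 and 14.2 in irradiated cells, 16.1 and 16.3 in day 14 cells, and 14.2 and 15.9 in day 0 cells. In both genes the day 14 libraries were the highest, and the change in irradiated against day 14 cells was -0.16 (-0.55 to 0.24) for Msh4 and -0.15 (-0.53 to 0.24) for Msh5. Without both incomplete libraries it was -0.28 for Msh4 and -0.11 for Msh5, and with TMM scaling -0.10 and -0.09.

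Among the MutL genes, Pms2 had 18.4 and 11.5 reads per 100 in irradiated cells, 14.5 and 18.2 in day 14 cells, and 16.9 and 16.9 in day 0 cells. Pms1 had 12.8 and 13.6 in irradiated cells, 12.6 and 14.9 in day 14 cells, and 12.3 and 15.3 in day 0 cells. Mlh3 had 13.4 and 18.0 in irradiated cells, 19.99 and 14.2 in day 14 cells, and 13.8 and 14.9 in day 0 cells. Irradiated and day 14 libraries overlapped for all 3, and the changes between these groups were -0.13 for Pms2 (-0.58 to 0.31), -0.06 for Pms1 (-0.49 to 0.37) and -0.12 for Mlh3 (-0.56 to 0.31). These values moved with single libraries. Without irradiated replicate 2 they were 0.17 for Pms2, -0.10 for Pms1 and -0.35 for Mlh3. Without day 14 replicate 1 they were -0.29 for Pms2, -0.18 for Pms1 and 0.14 for Mlh3, so that Pms2 and Mlh3 each turned sign in 1 of these settings. With TMM scaling they were -0.08, -0.01 and -0.06.

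Of the 9 genes, 0 single knockouts had both irradiated libraries above both day 14 libraries (8.06% of all genes) and 3 had both below (17% of all genes), Msh4 and Msh5 among them. Against day 0, 2 genes were above and 2 below in both irradiated libraries (14.8% and 19.6% of all genes), and 2 above and 1 below in both day 14 libraries (18.3% and 12.2% of all genes). The median change of the 9 in irradiated against day 14 cells was -0.13, against -0.08 over all 459 genes, a median that was -0.02 with TMM scaling.

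Constructs with 2 mismatch repair guides show the double knockouts, 272 constructs of 36 gene pairs, with 8 constructs a pair (6 where Msh4 takes part). Reads of a pair are given as counted, in libraries whose totals differ as above. For each pair the interaction is the log2 change of the double knockout beyond the sum of both gene effects. edgeR called 0 of the 36 pairs in irradiated against day 14 cells, 0 in irradiated against day 0 cells and 0 in day 14 against day 0 cells, where 0%, 0% and 0% of all 105111 gene pairs were called. limma-trend called 0 of 36 in each. At an unadjusted edgeR p under 0.05 there were 0, 0 and 1 of the 36, and 0.83%, 0.35% and 0.43% of all pairs. The median size of an interaction, without its sign, was 0.41, 0.33 and 0.34 among the 36 and 0.37, 0.35 and 0.42 among all pairs.

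The intervals of these pairs were wide. The median half-width of the 95% interval was 1.29 in each comparison, and 0.61, 0.53 and 0.53 without both incomplete libraries. Of the 306 constructs inside the set, 169 had reads in irradiated replicate 2 and 159 in day 14 replicate 1, against 300 to 305 in the other 4 libraries. In irradiated replicate 2 a single construct held a median of 53.8% of a pair's reads, and in day 14 replicate 1 58.7%, against 27.2% to 30.4% elsewhere. Of the constructs without reads in irradiated replicate 2, 70.8% also had none in day 14 replicate 1, and 97 of the 306 were at 0 in both.

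Msh4 with Msh5, the meiotic MutS dimer, had 280 and 687 reads in irradiated cells, 675 and 373 in day 14 cells, and 362 and 535 in day 0 cells. The incomplete libraries were the 2 highest, and the interaction in irradiated against day 14 cells was -0.67 (-2.11 to 0.77), or -0.61 (-1.34 to 0.12) without them.

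Pairs of subunits that take each other's place in a dimer would lose both alternatives at once. Msh3 with Msh6 had 857 and 990 reads in irradiated cells, 711 and 784 in day 14 cells, and 597 and 931 in day 0 cells. Its interaction was -0.06 in irradiated against day 14 cells (-0.86 to 0.75), 0.19 in irradiated against day 0 cells (-0.62 to 1.00) and 0.25 in day 14 against day 0 cells (-0.56 to 1.05), among the narrower intervals of the set. The interaction in irradiated against day 14 cells was -0.59 for Pms1 with Pms2 (-1.70 to 0.51), -0.22 for Mlh3 with Pms2 (-3.45 to 3.01) and 0.66 for Mlh3 with Pms1 (-0.70 to 2.02). Mlh3 with Pms2 had 369 and 116 reads in irradiated cells, 15 and 478 in day 14 cells, and 601 and 637 in day 0 cells, so its wide interval went with 1 construct of 8 in day 14 replicate 1. Without both incomplete libraries these interactions were -0.07 for Pms1 with Pms2 (-0.68 to 0.53), -0.56 for Mlh3 with Pms2 (-1.20 to 0.09) and -0.13 for Mlh3 with Pms1 (-0.82 to 0.57), the last with its sign turned. For Msh3 with Msh6 the values without them were -0.19, 0.16 and 0.35 in the 3 comparisons.

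Among the named genes, the pairs of smallest p were also pairs in which 1 library stood out. Mlh3 with Msh4 had 301 and 231 reads in irradiated cells, 849 and 338 in day 14 cells, and 346 and 480 in day 0 cells, and an interaction of -1.53 in irradiated against day 14 cells (-3.07 to 0.01). Msh3 with Pms2 had 493 and 2334 reads in irradiated cells, 316 and 486 in day 14 cells, and 1005 and 719 in day 0 cells, and an interaction of 1.41 in irradiated against day 14 cells (-0.27 to 3.09). In each the outlying count came from an incomplete library. Without both of them the same interactions were -0.36 (-1.11 to 0.39) and -0.23 (-0.82 to 0.35), so that the second turned its sign. In day 14 against day 0 cells, Msh4 with Msh6 had an interaction of 1.30 (-0.29 to 2.90) and Mlh3 with Msh4 one of 1.00 (-0.52 to 2.52). Msh4 with Msh6 had 517 and 1019 reads in irradiated cells, 1630 and 456 in day 14 cells, and 461 and 680 in day 0 cells, so that day 14 replicate 1 was the highest for this pair too. Without both incomplete libraries the interactions were 0.01 for Msh4 with Msh6 (-0.54 to 0.56) and 0.02 for Mlh3 with Msh4 (-0.63 to 0.66).

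Without both incomplete libraries, 1 library remains in each later group, and day 0 alone gives the spread. edgeR then called 0 of the 36 pairs in each comparison, of 0.205% of all pairs in irradiated against day 14, 1.21% in irradiated against day 0 and 0.16% in day 14 against day 0 cells. At an unadjusted p under 0.05 there were 2, 5 and 2 of the 36, and 6.64%, 13.0% and 6.09% of all pairs. Against day 0, irradiated cells had an interaction of -0.68 for Msh3 with Pms2 (-1.20 to -0.17, adjusted p = 0.201 by edgeR), of -0.62 for Mlh3 with Pms2 (-1.19 to -0.05, adjusted p = 0.333 by edgeR) and of -0.59 for Msh4 with Pms2 (-1.14 to -0.03, adjusted p = 0.351 by edgeR). With all libraries the same interactions were 0.66 for Msh3 with Pms2 (-0.99 to 2.31), -1.24 for Mlh3 with Pms2 (-4.51 to 2.03) and 0.72 for Msh4 with Pms2 (-1.001 to 2.44), so that the sign of the first and the last depends on the incomplete libraries.

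Constructs with 2 guides to the same mismatch repair gene, 34 in all, held 33.2 and 44.7 CPM in irradiated cells, 34.6 and 39.0 CPM in day 14 cells, and 26.8 and 38.3 CPM in day 0 cells. The groups overlapped. In irradiated replicate 2, 15 of the 34 had no reads, and in day 14 replicate 1, 18.

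Set against all 458 partner genes, no mismatch repair gene had a partner with a called interaction. Of 4122 pairs with a member, edgeR called 0 in each comparison, where 0% of all 105111 gene pairs were called. In irradiated against day 14 cells 29 had an unadjusted p under 0.05 (0.83% of all gene pairs did). Against day 0 there were 11 in irradiated cells (0.35% of all gene pairs) and 23 in day 14 cells (0.43% of all gene pairs). The smallest adjusted p of such a pair was 1.00, 1.00 and 0.970. In the complete libraries, the median change over 458 partners lay between -0.07 and 0.04 for each of the 9 genes in irradiated replicate 1 against day 14 replicate 2, and between 0 and 9 partners differed by more than 2-fold. Between the incomplete libraries, irradiated replicate 2 and day 14 replicate 1, 144 to 218 partners differed by more than 2-fold, and the SD over partners was 1.52 to 2.29 against 0.32 to 0.41 in the complete ones.

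Genes that act with these proteins also gave no calls, in a test that called 0% of all 459 genes in each comparison. Of 16 genes of the later steps of repair, 12 were in the library, among them the exonuclease Exo1, the clamp Pcna, its loader Rfc1 and the single-strand binding protein Rpa1. edgeR called 0 of the 12 in each comparison, and in irradiated against day 14 cells 7 were higher and 5 lower, with a median of 0.00. The smallest p among them was that of Rfc1, at -0.10 (SE 0.05). All 11 known partners of MutS and MutL proteins were measured, such as the nuclease Fan1, the helicases Wrn, Blm and Brip1 and the glycosylase Mutyh, and 0 were called, with 7 higher, 4 lower and a median of 0.01. Wrn had the smallest p of these, at 0.17 (SE 0.12). Exo1 counts in both of these lists. Of 8 meiotic crossover factors, the 3 in the library (Spo11, Dmc1 and Mus81) had values of 0.04, 0.00 and -0.02. Over all 459 genes, 237 were higher in irradiated than in day 14 cells and the median was 0.00.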

How the data were processed

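For each pair of guides the authors deposited a raw read count, per the file headers and the values. HISAT2 2.1.0 and hg38 appear in the submitters' processing notes without a role. The sources used here do not give how reads were assigned to guides. A pair absent from a library's table was set to 0. The combined tables hold 2 columns that match no sample and were not used. Symbols are written in mouse style, and 9 of 9 matched a human gene of the RefSeq table (GRCh38.p14) regardless of case. Guide sequences and target sites were not used here.

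Counts were summed per guide, gene, gene with a non-targeting partner, and gene pair. Features needed a mean count of 2000 (guides, genes) or 20 (single knockouts, pairs). edgeR 4.0.16 (R 4.3.3) fitted all features over 6 libraries in one fit per test, with TMM within each position, non-targeting constructs as the scale of single knockouts, and for pairs an offset from an additive fit on log2 CPM (prior count 2, 25 iterations). Tests were two-sided with Benjamini-Hochberg adjustment at 0.05, and intervals are 95%. Alternatives used DESeq2 1.42.0, limma 3.58.1, other scalings and filters, a replicate block and libraries left out. The code was tested on simulated data, with a smaller spread than in the fits to all libraries, most so for pairs. No simulated library was incomplete, so this check does not show which changes the tests can detect here. Members, lists and tests were chosen with earlier results of these data known. Results of some members are not reported here. For the others the text gives every gene, the guides whose replicates stand apart, and changes between groups for a few guides. It also gives dimer partners, subunits that replace each other, and pairs of smallest p in some comparisons.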

Additional observations from a re-analysis of the deposited data

How the results depend on the processing

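In the main analysis 0 mismatch repair guides, genes, single knockouts or pairs were called in each of the 3 comparisons. This changed under 2 settings. Leaving out each library in turn gave between 0 and 12 called guides in day 14 against day 0 cells, between 0 and 11 in irradiated against day 0 cells, and between 0 and 7 and between 0 and 6 called genes in these comparisons. All these calls came without day 0 replicate 2, which leaves day 0 replicate 1 as the only start library, and the called guides were all at position 2. That setting also called 313 and 311 of all guides and 168 and 163 of all genes. DESeq2 gave 1 called guide in irradiated against day 14 cells. Under the other settings (DESeq2 elsewhere, limma-trend, other scaling, filters or prior count, each position fitted on its own, position 1 guides only, and without the incomplete libraries) the count of called members was 0. Position 1 guides only called 10, 2 and 2 of 458 genes in irradiated against day 14, irradiated against day 0 and day 14 against day 0 cells, and each position fitted on its own called 10, 1 and 2 of 1849 guides. Without the incomplete libraries 0, 3 and 1 of 459 single knockouts and 216, 1274 and 168 of 105111 pairs were called. Values of single members moved by more than their error in 87 of 1400 guide, 47 of 360 gene, 23 of 306 single-knockout and 85 of 1224 pair results.

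The replicate numbers of the titles were not shown to pair the libraries. Deviations of same-numbered libraries correlated at -0.58 between irradiated and day 14 guides, 0.11 between irradiated and day 0 and -0.05 between day 14 and day 0, across 1849 guides. With the replicate block, edgeR called 0 members in every test, and 1, 1 and 0 of all guides. A crossed block (day 14 replicate 1 with irradiated replicate 2), chosen after seeing the data, was fitted to irradiated and day 14 libraries only. In irradiated against day 14 cells it called 0 members, and 36 of all guides, 28 genes, 0 single knockouts and 2 pairs.

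Each group has 2 libraries. Day 0 replicate 1 stood apart at position 2, and in the incomplete libraries 169 and 159 of the 306 constructs with 2 mismatch repair guides had reads. The spread between libraries that edgeR estimated, as a coefficient of variation, moved with the libraries left out. For pairs it was 0.57 with all libraries, 0.15 without both incomplete libraries and 0.68 without day 0 replicate 1. For guides these values were 0.098, 0.142 and 0.067, and for genes 0.060, 0.092 and 0.033. Which of these limits the tests most was not tested beyond these values.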
